A study of Mus musculus with 9 samples.

Results

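The nuclear genes named Nduf in mouse kidney RNA are described here, which encode most subunits of respiratory complex I, the proteins that assemble it and a few relatives. They were found in a table of 56305 genes as the rows whose symbol begins with Nduf, followed by subunit or assembly letters and a number, with or without further characters. That gave 51 names, of which 46 reached 10 counts in at least 3 libraries and are the members: 36 subunits, 8 assembly factors and 2 genes given apart. The 2 apart are Ndufa4, first purified with complex I and now placed in complex IV, and its paralog Ndufa4l2. The other 5 names did not reach the minimum: Ndufa11b, Ndufab1-ps, Ndufb4c and Ndufs6b, with at most 8 counts in any library, and the core subunit Ndufs3, listed at 0 or 1 count in every library. Complex I cannot be built without Ndufs3, so its row is not read as absence of the transcript, and the cause of its low count was not tested. The row called Ndufb1-ps in the gene annotation is named Ndufb1, protein-coding, in the RefSeq table, and is counted as a subunit.

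RNA of whole mouse kidney had been sequenced in 9 libraries, 3 for each of 3 groups. The first group, IRI CKO, held mice of genotype PFKFB3 CKO at day 14 after ischemia-reperfusion injury (IRI), in which both renal arteries were clamped for 30 minutes. The second, IRI WT, held PFKFB3 WT mice at day 14 after the same injury, and the third, Sham WT, held PFKFB3 WT mice after a sham operation. The design text calls the wild-type mice littermates and places the knockout in proximal tubular cells, the epithelium that reabsorbs most of the filtrate, so every other cell of the kidney kept the gene. The sources used here do not give strain, age, sex or Cre driver, and a knockout sham group was not analysed here. Whether each library stands for its own mouse is not in the labels, and the p-values therefore cover the spread among these libraries alone, part of which may be technical.

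Complex I is the entry of the mitochondrial respiratory chain: it takes electrons from NADH, passes them along iron-sulfur clusters to ubiquinone and pumps protons across the inner membrane. Its peripheral arm carries the NADH site and the clusters, its membrane arm carries the pumps, and accessory subunits surround a core that is partly encoded in the mitochondrial genome. Assembly factors bind the growing complex and leave it when it is complete. The proximal tubule is rich in mitochondria and depends on respiration for its ATP.

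Promoters are shown for the members that held 1 of 2 long motifs known from genes of mitochondria, so that the shared letters can be seen beside the values that follow. RefSeq promoters (GRCm38.p6, 250 bases before to 50 after the annotated start) were found for 40 of the 46 members, and those of Ndufa2, Ndufa4l2, Ndufaf6, Ndufb9 and Ndufs1 were among those not found. Each was searched on both strands for a YY1 motif and an NRF1 motif of 10 letters each, which are the capitals printed in Ndufa9 and Ndufa11, and for CCGGAAG (ETS and GABP) and TCAAGGTCA (ERR). The NRF1 letters are a palindrome, and no matches of different motifs overlapped. The YY1 letters stood in 4 of 32 subunit promoters (12.5%) and 1 of 7 assembly factor promoters (14.3%), against 0.995% of the 27025 genes in the table. The NRF1 letters stood in 3.12% of the subunit promoters (Ndufa11) and 28.6% of the assembly factor promoters (Ndufaf4 and Ndufaf5), against 1.07% of all genes. The ETS letters stood in 9.38% and 28.6%, against 9.93% of all genes, and the ERR letters in 0 of the 40, against 0.466% of all genes. All 5 YY1 matches lay on the strand of the gene and between 11 and 36 bases after the start. The YY1 letters include ATG, and whether these matches lie at start codons of the coding sequence was not checked. The stretch from 120 bases before to 50 after the start is printed for the 8 members with a YY1 or NRF1 match, 5' to 3' on the strand of the gene, with motif letters in capitals (in Ndufaf8 the first capitals are the ETS letters). Ndufa9 is at chr6:126849095-126849264 (minus strand), Ndufs4 at chr13:114388045-114388214 (minus), Ndufs6 at chr13:73328433-73328602 (minus), Ndufs7 at chr10:80249329-80249498 (plus), Ndufaf8 at chr11:120098814-120098983 (plus), Ndufa11 at chr17:56717642-56717811 (plus), Ndufaf4 at chr4:24897963-24898132 (plus) and Ndufaf5 at chr2:140170526-140170695 (plus).
Ndufa9: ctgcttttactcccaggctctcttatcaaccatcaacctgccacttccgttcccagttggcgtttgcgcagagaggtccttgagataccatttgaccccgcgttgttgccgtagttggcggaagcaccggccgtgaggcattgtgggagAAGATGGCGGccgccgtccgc
Ndufs4: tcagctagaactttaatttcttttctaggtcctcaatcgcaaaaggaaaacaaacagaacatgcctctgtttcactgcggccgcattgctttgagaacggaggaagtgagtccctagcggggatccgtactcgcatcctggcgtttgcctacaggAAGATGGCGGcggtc
Ndufs6: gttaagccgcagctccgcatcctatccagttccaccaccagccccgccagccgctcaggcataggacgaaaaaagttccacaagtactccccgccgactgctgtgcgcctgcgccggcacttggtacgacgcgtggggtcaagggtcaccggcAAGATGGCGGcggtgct
Ndufs7: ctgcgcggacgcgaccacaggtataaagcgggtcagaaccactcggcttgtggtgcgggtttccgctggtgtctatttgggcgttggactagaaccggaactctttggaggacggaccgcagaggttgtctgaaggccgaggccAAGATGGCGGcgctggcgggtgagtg
Ndufaf8: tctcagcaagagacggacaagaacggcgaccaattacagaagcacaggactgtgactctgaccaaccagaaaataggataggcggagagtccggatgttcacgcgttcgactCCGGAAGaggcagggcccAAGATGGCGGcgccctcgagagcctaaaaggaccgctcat
Ndufa11: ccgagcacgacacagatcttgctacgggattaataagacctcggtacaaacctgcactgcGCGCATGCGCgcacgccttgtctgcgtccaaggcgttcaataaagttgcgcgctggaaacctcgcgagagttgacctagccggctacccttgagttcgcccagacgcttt
Ndufaf4: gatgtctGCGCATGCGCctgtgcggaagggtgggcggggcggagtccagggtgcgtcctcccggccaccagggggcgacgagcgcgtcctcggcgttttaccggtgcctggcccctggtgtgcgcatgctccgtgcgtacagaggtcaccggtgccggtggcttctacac
Ndufaf5: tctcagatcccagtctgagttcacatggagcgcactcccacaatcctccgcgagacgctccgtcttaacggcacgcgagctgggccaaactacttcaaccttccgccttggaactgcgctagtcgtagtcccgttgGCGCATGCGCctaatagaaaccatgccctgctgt
These matches describe letters, not binding, and genes without them are not shown to lack the factor.

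The libraries held 15626792 to 16426817 counts in IRI CKO, 16946876 to 17873558 in IRI WT and 18707315 to 19987842 in Sham WT. Levels are CPM, counts scaled by library size with TMM factors, which set the typical gene equal across libraries. Pfkfb3, the targeted gene, had 25.2, 19.8 and 17.3 CPM in IRI CKO, 36.2, 34.4 and 25.3 CPM in IRI WT and 20.0, 20.2 and 21.9 CPM in Sham WT kidneys, so IRI CKO replicate 1 and IRI WT replicate 3 were nearly level. Transcripts of the mitochondrial genome took 13.2% ± 0.612 of counts in IRI CKO, 6.45% ± 0.645 in IRI WT and 9.40% ± 1.61 in Sham WT (SD, n = 3 each). The summed level of 12 proximal tubule markers, none of them at 0, was 18709 to 21840 CPM in IRI CKO, 3477 to 5342 CPM in IRI WT and 20458 to 22840 CPM in Sham WT kidneys. The sum of 9 macrophage markers was 139 to 157 CPM in IRI CKO, 1603 to 1771 CPM in IRI WT and 139.6 to 189 CPM in Sham WT, and the sum of 7 fibroblast markers 156 to 304 CPM, 2090.2 to 2825 CPM and 140.2 to 232 CPM in the same groups. All 12 proximal tubule markers rose in IRI CKO against IRI WT and fell in IRI WT against Sham WT, while all 9 macrophage and 7 fibroblast markers moved the other way. Other tubule markers were less uniform. With injury 4 of 6 thick ascending limb and 2 of 5 intercalated cell markers fell. Of 4 distal convoluted tubule markers 3 fell and 1 rose. In IRI CKO against IRI WT 4, 3 and 3 rose in these lists and 0 fell. Among all tested genes 29.5% rose and 28.7% fell with injury, and 27.8% rose and 28.1% fell in IRI CKO against IRI WT. In IRI CKO against Sham WT 1 of 12 proximal tubule markers rose and 3 fell, and 4 of 5 intercalated cell markers rose. There 1 limb marker rose and 1 fell, and 1 distal marker rose. Of all tested genes 8.13% rose and 9.48% fell there. Brown fat and muscle markers, which would mark tissue around the kidney, summed to at most 0.344 CPM in IRI CKO, 2.09 CPM in IRI WT and 0.119 CPM in Sham WT, with Myh4 at 0 in all. In RNA of a whole organ, fewer cells of a type and less RNA per cell cannot be told apart, and the part of these cell types in the results below was not tested.

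The effect of injury was read from IRI WT against Sham WT kidneys. Complex I transcripts were lower as a set: by edgeR's quasi-likelihood test, 35 of 36 subunits and 6 of 8 assembly factors fell in IRI WT against Sham WT kidneys and 0 rose, where 28.7% of the 15974 tested genes fell and 29.5% rose (false discovery rate 0.05, Benjamini-Hochberg adjustment). The median log2 fold change was -0.70 over the subunits and -0.54 over the assembly factors, against 0.03 over all tested genes with TMM scaling. With library size alone the medians were -0.15, 0.0041 and 0.57, and 8 subunits and 4 assembly factors turned positive. The 3 IRI WT libraries lay below the 3 Sham WT libraries for 36 of 36 subunits and for 6 of 8 assembly factors, against 32.3% of all genes. The share of all counts taken by the subunits is a scaling by library size, without TMM factors, and depends on the other transcripts in a library. It was 0.626 to 0.691% in IRI CKO, 0.401 to 0.436% in IRI WT and 0.471 to 0.542% in Sham WT.

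**Figure D1:**
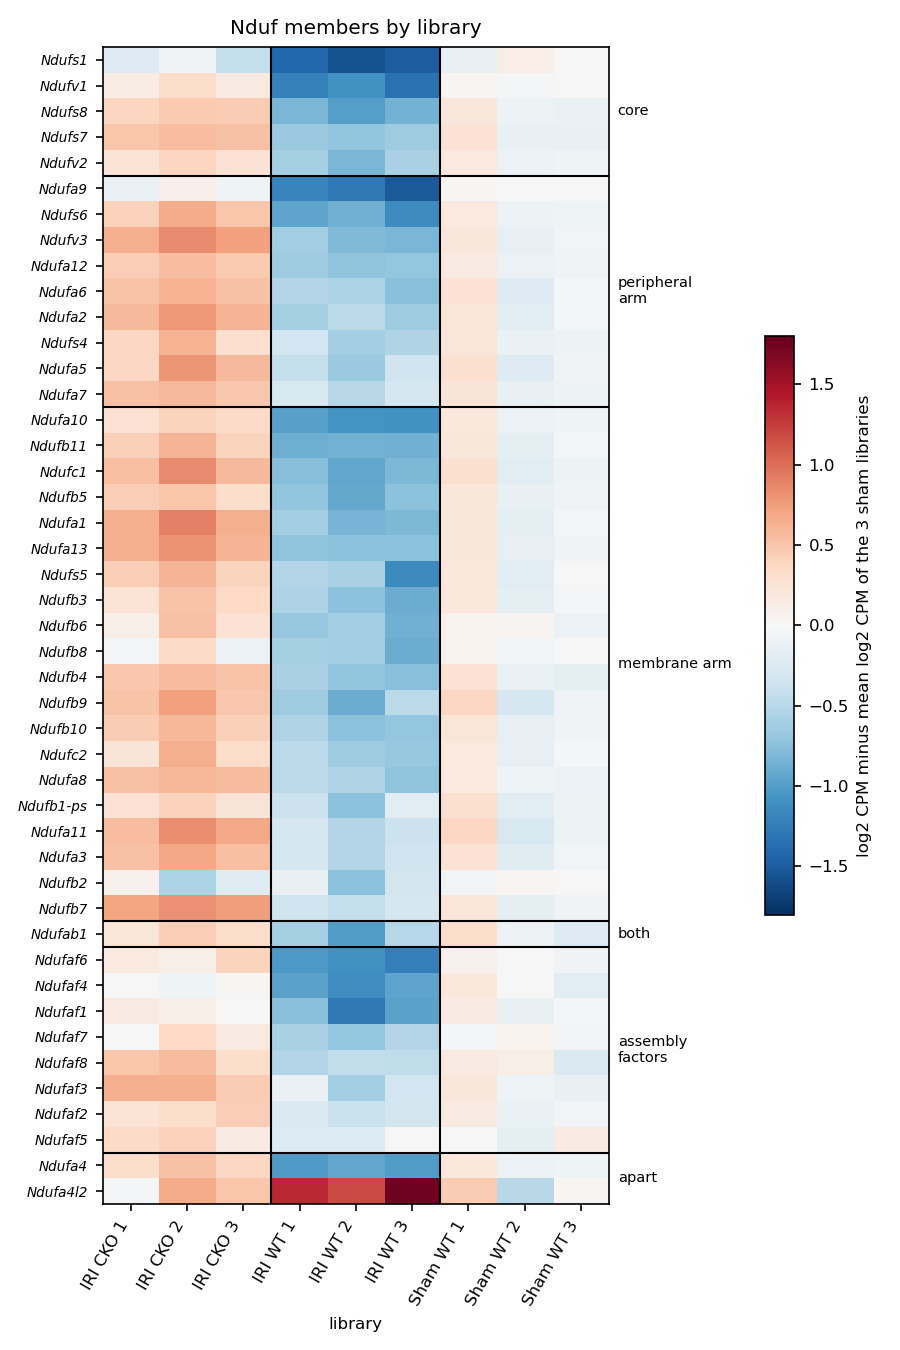
Level of each of 45 members in each library, as log2 CPM minus the mean log2 CPM of the 3 Sham WT libraries, with members in rows by role and libraries in columns. The IRI WT columns are blue or pale for the subunits and assembly factors and red for Ndufa4l2 (with library size alone 8 subunits and 4 assembly factors turn positive), and most subunits are red in the IRI CKO columns.

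Among the classes of Nduf-named subunits, the core subunits of the peripheral arm had the lowest median log2 fold change, -0.98 over the 6 that were tested. Ndufs1, the large core subunit that carries several of the iron-sulfur clusters (chromosome 1, 63143596 to 63176833, mm10), had 209, 236 and 183 CPM in IRI CKO, 92.1, 83.0 and 87.9 CPM in IRI WT and 225, 267 and 248 CPM in Sham WT kidneys. All IRI WT libraries lay far below the others, and IRI CKO and Sham WT overlapped. Ndufs1 was 2.82-fold lower in IRI WT than in Sham WT kidneys, the lowest fold change of any member (log2 fold change -1.49, SE 0.12, adjusted p = 1.35e-06).
Ndufv1, which binds NADH and the flavin that first takes its electrons, had 439.7, 505 and 446 CPM in IRI CKO, 172, 188 and 158 CPM in IRI WT and 408, 389 and 402 CPM in Sham WT. It fell by 1.21 on the log2 scale with injury (SE 0.10). Its partner Ndufv2, which holds an iron-sulfur cluster beside it, had 261, 288 and 263 CPM in IRI CKO, 146, 124 and 147 CPM in IRI WT and 249.7, 205 and 208 CPM in Sham WT. The change of Ndufv2 was smaller (log2 fold change -0.67, SE 0.11), and in both genes the IRI WT libraries lay below all others.
Of the core subunits near the ubiquinone site, Ndufs7, which carries the last cluster before ubiquinone, had 331, 344 and 337 CPM in IRI CKO, 147, 144 and 149.7 CPM in IRI WT and 280.1, 214 and 214 CPM in Sham WT. Ndufs8, which carries clusters that pass electrons on towards it, had 245, 259 and 257 CPM in IRI CKO, 106, 93.8 and 103 CPM in IRI WT and 215, 176 and 173 CPM in Sham WT. Both had IRI WT at the bottom without overlap, with log2 fold changes of -0.68 for Ndufs7 and -0.89 for Ndufs8 in IRI WT against Sham WT, and in both Sham WT replicate 1 stood above the other sham libraries.

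Of the accessory subunits of the peripheral arm, 9 of 9 fell, with a median log2 fold change of -0.63. Ndufa9, a nucleotide-binding subunit where the arms meet (chromosome 6, 126821721 to 126849136), had 137, 159 and 141 CPM in IRI CKO, 65.8, 60.9 and 52.5 CPM in IRI WT and 151, 148 and 148 CPM in Sham WT kidneys. Its lower level in IRI WT than in Sham WT was the largest injury change of an accessory subunit (log2 fold change -1.32, SE 0.11, adjusted p = 1.71e-06). Ndufa7, a small subunit of the same arm, had 163, 169 and 157 CPM in IRI CKO, 92.5, 79.9 and 90.3 CPM in IRI WT and 132, 102 and 106 CPM in Sham WT. It was the subunit with the smallest fall among those called (log2 fold change -0.37, adjusted p = 0.0151), and without Sham WT replicate 1 or IRI WT replicate 2 its adjusted p was 0.0510 or 0.0586.
Of the membrane arm accessory subunits, 19 of 20 fell, with a median of -0.70. Ndufa10, which resembles nucleoside kinases, had 355, 385 and 372 CPM in IRI CKO, 148, 139 and 137 CPM in IRI WT and 332, 271 and 277 CPM in Sham WT, and fell by 1.05 on the log2 scale with injury. Ndufb7, which faces the space between the membranes, had 200.0, 216 and 208 CPM in IRI CKO, 95.3, 90.8 and 99.8 CPM in IRI WT and 142, 110.1 and 118 CPM in Sham WT, and fell by 0.37. The exception was Ndufb2, with 6.36, 4.07 and 5.16 CPM in IRI CKO, 5.47, 3.60 and 4.78 CPM in IRI WT and 5.80, 6.20 and 6.07 CPM in Sham WT (log2 fold change -0.38, SE 0.22, adjusted p = 0.157). Ndufb2 had only 54 to 119 counts in a library and shares exon bases with the protein-coding gene Gm42420 on the same strand, so its row is uncertain, as are those of Ndufb8 and Ndufb9, which share exon bases with Gm20538 and Gm49356. Ndufab1, the acyl carrier protein that sits in both arms, had 71.5, 82.8 and 76.7 CPM in IRI CKO, 40.5, 30.4 and 42.9 CPM in IRI WT and 76.5, 57.4 and 52.2 CPM in Sham WT, and fell by 0.71 on the log2 scale.

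**Figure D2:**
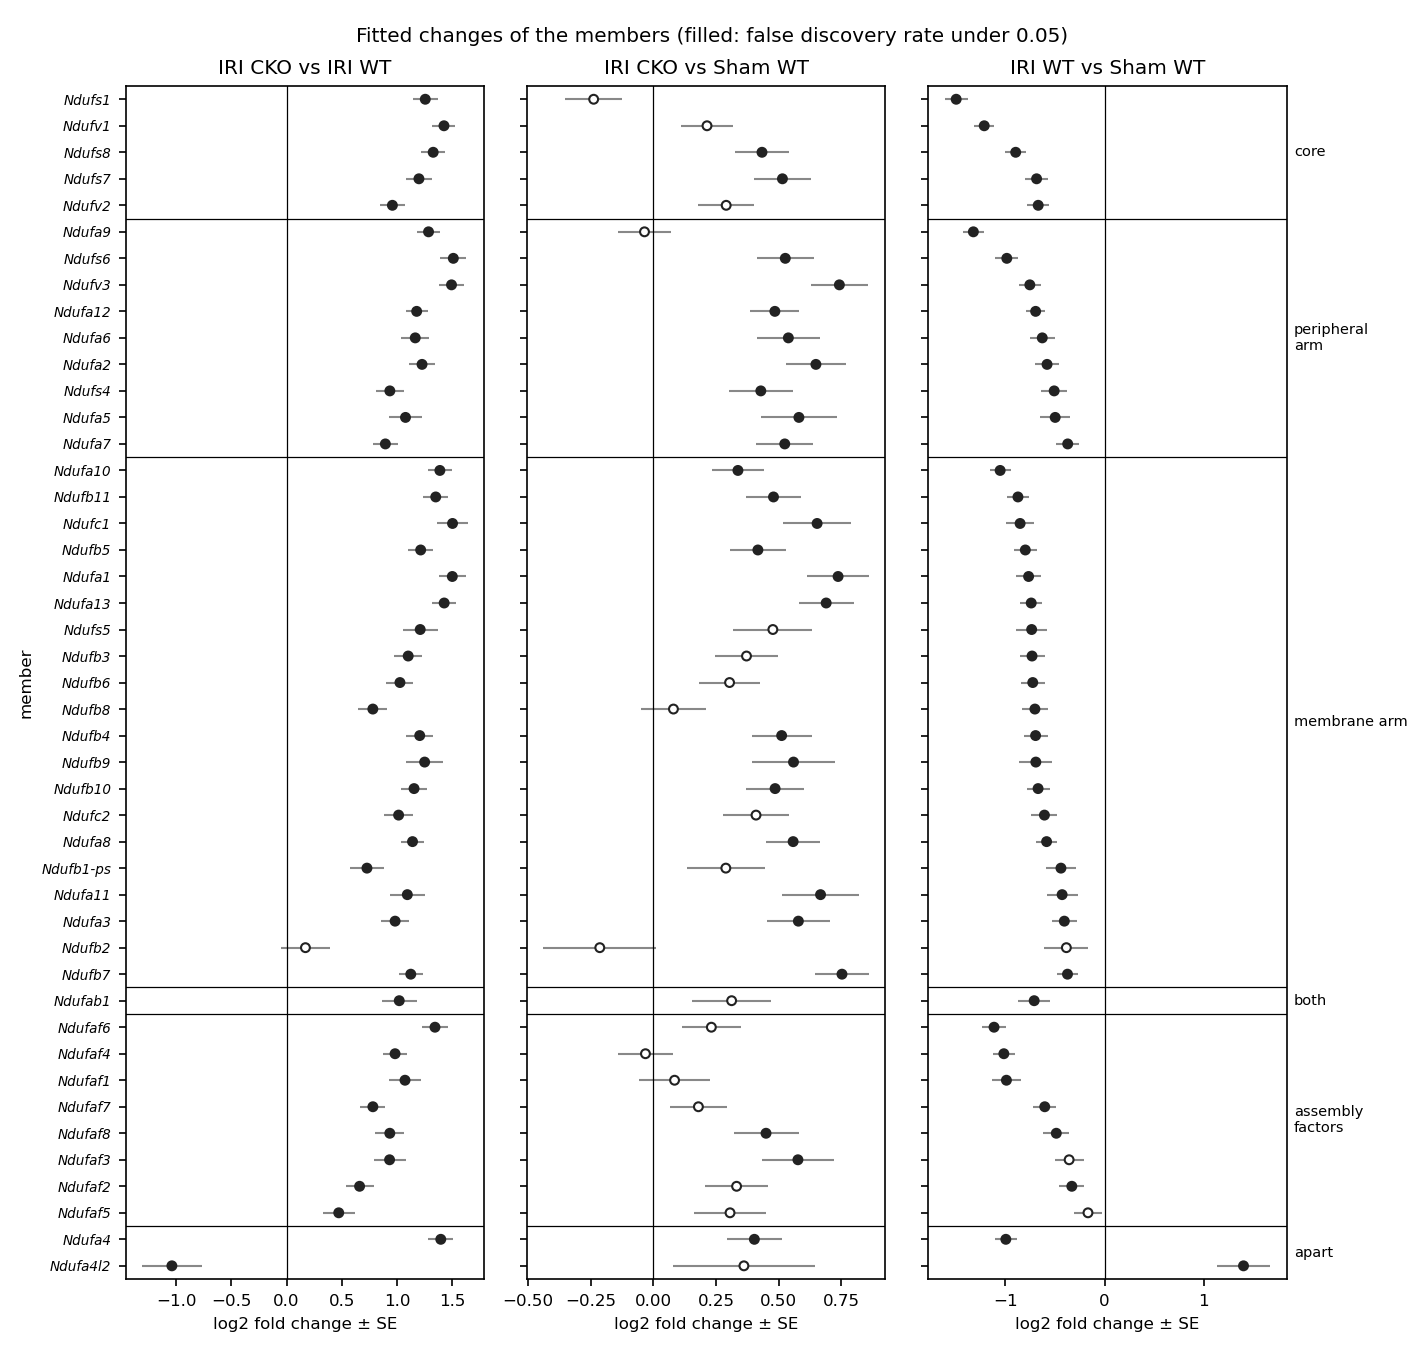
Fitted log2 fold change with its SE for each of the same 45 members in the 3 comparisons, in rows by role, with filled points for a false discovery rate under 0.05. In IRI CKO against IRI WT all members but Ndufb2 are filled, with Ndufa4l2 on the lower side, and in IRI CKO against Sham WT the core subunits and assembly factors are mostly open.

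The 8 assembly factors did not move alike. Ndufaf6, needed early in assembly, had 29.5, 28.3 and 34.5 CPM in IRI CKO, 12.8, 12.4 and 11.1 CPM in IRI WT and 27.5, 26.0 and 25.1 CPM in Sham WT kidneys. Ndufaf4, which works on the ubiquinone module, had 81.3, 77.9 and 82.9 CPM in IRI CKO, 42.2, 37.8 and 42.6 CPM in IRI WT and 93.8, 82.0 and 71.7 CPM in Sham WT. Ndufaf1, part of the complex that builds the membrane arm, had 33.5, 32.3 and 29.7 CPM in IRI CKO, 17.8, 12.3 and 15.3 CPM in IRI WT and 33.1, 27.4 and 29.6 CPM in Sham WT. These 3 lost about as much as the core subunits, with log2 fold changes of -1.11, -1.01 and -0.99 in IRI WT against Sham WT, and no overlap between these groups.
Ndufaf7, an arginine methyltransferase in human cells, had 34.5, 44.7 and 39.1 CPM in IRI CKO, 23.2, 21.5 and 24.0 CPM in IRI WT and 34.1, 36.5 and 33.8 CPM in Sham WT. Ndufaf8, which in human cells works with NDUFAF5, had 36.4, 38.1 and 32.0 CPM in IRI CKO, 17.9, 18.9 and 18.9 CPM in IRI WT and 28.8, 27.6 and 21.5 CPM in Sham WT. Both fell with no overlap between IRI WT and Sham WT, by 0.60 and 0.49 on the log2 scale.
Ndufaf3, the partner of Ndufaf4, had 41.2, 40.8 and 35.9 CPM in IRI CKO, 24.1, 17.1 and 20.6 CPM in IRI WT and 30.3, 24.9 and 23.9 CPM in Sham WT, and IRI WT replicate 1 lay above Sham WT replicate 3. It did not pass the test with injury (log2 fold change -0.36, adjusted p = 0.0529), and did so without IRI WT replicate 1 (-0.49, adjusted p = 0.0207) or without Sham WT replicate 3 (-0.43, adjusted p = 0.0467). Ndufaf5, which hydroxylates an arginine of NDUFS7 in human cells, had 16.2, 17.0 and 14.1 CPM in IRI CKO, 10.7, 10.7 and 12.6 CPM in IRI WT and 12.7, 11.4 and 14.1 CPM in Sham WT. Its groups overlapped between IRI WT and Sham WT, with a log2 fold change of -0.17 (SE 0.14, adjusted p = 0.344).

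A pair of paralogs set an assembly factor beside a subunit. Ndufaf2 holds the place that its paralog Ndufa12 takes late in assembly. Ndufaf2 had 20.1, 21.1 and 23.2 CPM in IRI CKO, 14.3, 12.9 and 13.5 CPM in IRI WT and 19.0, 15.7 and 16.5 CPM in Sham WT, and Ndufa12 had 188, 203 and 192 CPM in IRI CKO, 88.7, 83.4 and 84.9 CPM in IRI WT and 155, 129 and 132 CPM in Sham WT. The IRI WT libraries were lowest in both, by 0.33 (SE 0.13, adjusted p = 0.0416) for Ndufaf2 and 0.69 (SE 0.10, adjusted p = 9.61e-05) for Ndufa12 on the log2 scale against Sham WT. The call of Ndufaf2 was lost at the same sign under 11 of 19 other settings, among them leaving out Sham WT replicate 1 or 3 or any of the 3 IRI WT replicates (adjusted p of 0.0607 to 0.121), and its sign turned with library size alone. In all, 17 members overlap an exon of a gene on the other strand. Of the exon length of Ndufaf2, 65.7% lies opposite a non-coding gene, B230220B15Rik, and without a stated use of strand the reads of such pairs cannot be told apart.

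A second pair of paralogs moved in opposite directions. Ndufa4 had 605, 703 and 629 CPM in IRI CKO, 241, 254 and 241 CPM in IRI WT and 554, 451 and 461 CPM in Sham WT kidneys, as the subunits did. Ndufa4l2, a target of hypoxia-inducible factor 1 in cultured cells, had 3.51, 5.73 and 5.09 CPM in IRI CKO, 9.20, 8.18 and 12.1 CPM in IRI WT and 4.93, 2.55 and 3.69 CPM in Sham WT. Ndufa4l2 was highest in the IRI WT libraries with no overlap.
Ndufa4 fell by 0.99 on the log2 scale in IRI WT against Sham WT, and Ndufa4l2 was the single member to rise with TMM scaling (2.64-fold, log2 fold change 1.40, SE 0.27, adjusted p = 0.000952). In IRI CKO against IRI WT kidneys Ndufa4 was higher by 1.40, and Ndufa4l2 was 2.05-fold lower (log2 fold change -1.04, SE 0.27, adjusted p = 0.00634). Both calls of Ndufa4l2 held in each of the 19 other settings tried. The Ndufa4l2 row had 46 to 280 counts in a library.

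The effect of losing PFKFB3 in proximal tubular cells was read between the injured groups. Complex I transcripts were higher as a set in the knockout: 35 of 36 subunits and 8 of 8 assembly factors rose in IRI CKO against IRI WT kidneys and 0 fell, where 27.8% of all tested genes rose and 28.1% fell (edgeR's quasi-likelihood test, Benjamini-Hochberg adjustment). The median log2 fold change was 1.18 over the subunits and 0.93 over the assembly factors, against -0.01 over all tested genes. The IRI CKO libraries lay above the IRI WT libraries for 35 subunits and 8 assembly factors, against 31.1% of all genes. The IRI WT libraries serve in both comparisons, so the falls with injury and the rises with knockout are not independent of each other.
Subunits of every class rose: the median log2 fold change was 1.23 over 6 core subunits, 1.18 over 9 accessory subunits of the peripheral arm and 1.15 over 20 of the membrane arm. The top change was that of Ndufs6, a zinc-binding subunit of the peripheral arm (chromosome 13, 73319838 to 73328542), with 176, 209.7 and 188 CPM in IRI CKO, 68.6, 72.5 and 60.2 CPM in IRI WT and 149, 124 and 125 CPM in Sham WT. It was 2.85-fold higher in IRI CKO than in IRI WT kidneys (log2 fold change 1.51, SE 0.12, adjusted p = 1.43e-06), and all IRI CKO libraries also lay above the sham ones.
Ndufc1, a small subunit of the membrane arm, was close behind with 149, 185 and 154 CPM in IRI CKO, 60.4, 53.6 and 58.2 CPM in IRI WT and 125, 89.2 and 95.9 CPM in Sham WT (log2 fold change 1.50 in IRI CKO against IRI WT, SE 0.14). Ndufv3, at the tip of the peripheral arm, had 234, 269 and 249 CPM in IRI CKO, 96.6, 85.9 and 84.5 CPM in IRI WT and 171, 135 and 144 CPM in Sham WT, a log2 fold change of 1.49. Among core subunits the change ran from 0.96 for Ndufv2 to 1.43 for Ndufv1.
At the low end, Ndufb2 did not pass the test (log2 fold change 0.17, SE 0.22, adjusted p = 0.543). The Ndufb1-ps row had 57.1, 63.2 and 55.6 CPM in IRI CKO, 36.4, 28.4 and 41.5 CPM in IRI WT and 57.9, 41.5 and 44.6 CPM in Sham WT, and rose by 0.73 on the log2 scale in IRI CKO against IRI WT. With library size alone both subunits lost their direction or their call (-0.41 for Ndufb2, 0.14 for Ndufb1-ps). Among the assembly factors Ndufaf6 rose most (log2 fold change 1.34, adjusted p = 3.74e-06) and Ndufaf5 least (0.47, SE 0.14, adjusted p = 0.0153). Without IRI WT replicate 1 or 2 the adjusted p of Ndufaf5 was 0.0607 or 0.0505, and with library size alone its log2 fold change was -0.11.

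The last comparison sets injured knockout kidneys beside uninjured wild-type ones, and mixes injury with genotype. Here 23 of 36 subunits and 2 of 8 assembly factors rose in IRI CKO against Sham WT kidneys and 0 members fell, where 8.13% of all tested genes rose and 9.48% fell (edgeR's quasi-likelihood test, Benjamini-Hochberg adjustment). The median log2 fold change was 0.48 over the subunits and 0.27 over the assembly factors, against 0.01 over all tested genes. The IRI CKO libraries lay above the Sham WT libraries for 29 subunits and 4 assembly factors, against 18.4% of all genes.
The classes differed in this comparison: 8 of 9 accessory subunits of the peripheral arm and 13 of 20 of the membrane arm rose, against 2 of 6 core subunits, and a difference between classes was not tested. The highest was Ndufb7 (log2 fold change 0.75, SE 0.11, adjusted p = 0.00492), followed by Ndufv3 (0.74, adjusted p = 0.00505). The 2 core subunits were Ndufs7 (0.51, adjusted p = 0.0137) and Ndufs8 (0.43, adjusted p = 0.0201), and the 2 assembly factors Ndufaf3 (0.58, adjusted p = 0.0220) and Ndufaf8 (0.45, adjusted p = 0.0356). Ndufs1 and Ndufa9, which fell most with injury, had log2 fold changes of -0.24 (SE 0.11, adjusted p = 0.165) and -0.04 (SE 0.10, adjusted p = 0.844) and overlapped between the groups.
These calls depended on which libraries were kept. Sham WT replicate 1 was the highest sham library for most subunits, with a median deviation of 0.20 log2 units from the sham mean, against -0.14 and -0.06 for replicates 2 and 3. The number of subunits called was 6 without Sham WT replicate 2, 7 without Sham WT replicate 3 and 28 without Sham WT replicate 1. The median log2 fold change of the subunits was then 0.40, 0.45 and 0.58, against 0.48 with all libraries. The number of subunits called was 13 without IRI CKO replicate 2 and 18 without IRI CKO replicate 3. Without Sham WT replicate 2 or 3 or without IRI CKO replicate 2, 0 assembly factors were called. Ndufs7, Ndufs8, Ndufaf3 and Ndufaf8 lost their calls without Sham WT replicate 2 or 3 (adjusted p of 0.0634 to 0.124), while Ndufb7 and Ndufv3 kept theirs under each setting tried. Of all genes, 640 were then called without Sham WT replicate 2 and 1064 without Sham WT replicate 3. Without IRI CKO replicate 2 or 3, 1683 or 1560 were called, against 2813 with all libraries.

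**Figure D3:**
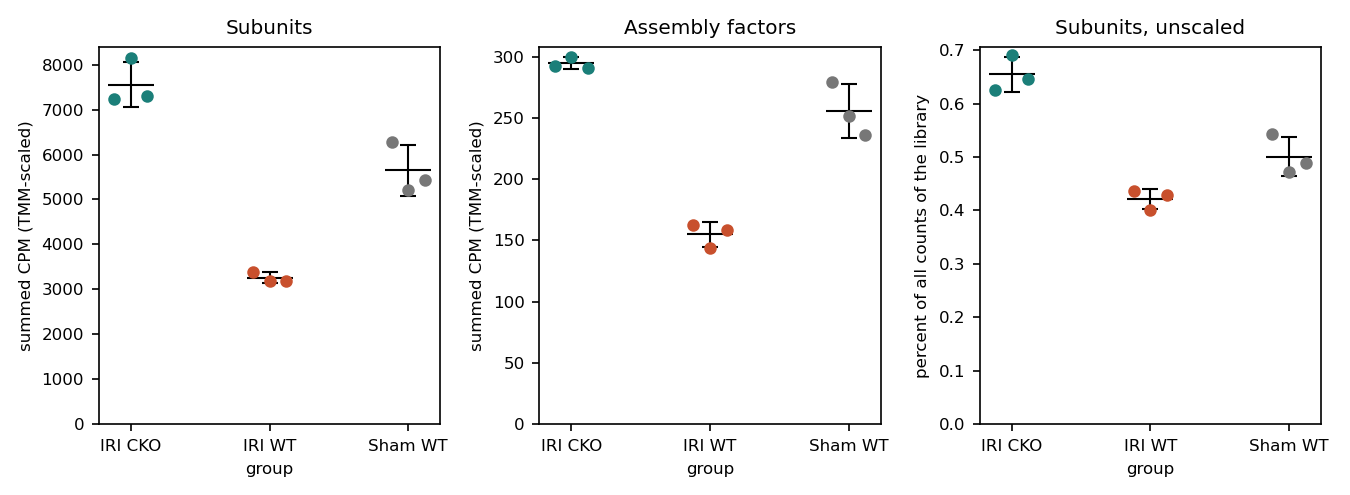
Summed TMM-scaled CPM of the 36 subunits and of the 8 assembly factors, and the share of all counts taken by the subunits (library size alone, no TMM factor), in each library, with the mean and SD of 3 libraries per group. The IRI WT points are lowest in all panels, and the IRI CKO points lie above the Sham WT points.

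The summed levels of subunits and assembly factors put the groups in the same order. The summed level of the subunits was 7233.5, 8144 and 7298 CPM in IRI CKO, 3394, 3184 and 3191 CPM in IRI WT and 6288, 5217 and 5442 CPM in Sham WT kidneys. That of the assembly factors was 293, 300.2 and 291 CPM in IRI CKO, 163, 144 and 159 CPM in IRI WT and 279, 251 and 236 CPM in Sham WT. Both sums were lowest in all IRI WT libraries, and both were highest in the IRI CKO libraries.
As a log2 deviation from the sham mean, the median subunit stood at 0.44, 0.59 and 0.44 in IRI CKO and at -0.60, -0.74 and -0.74 in IRI WT libraries. The median assembly factor stood at 0.21, 0.34 and 0.24 in IRI CKO and at -0.55, -0.66 and -0.49 in IRI WT libraries. In each injured library the subunits thus lay farther from the sham mean than the assembly factors did. The median fold change of the subunits minus that of the assembly factors was 0.25 in IRI CKO against IRI WT, 0.21 in IRI CKO against Sham WT and -0.15 in IRI WT against Sham WT, on the log2 scale. It kept its sign over 20 settings, in ranges of 0.11 to 0.29, 0.11 to 0.30 and -0.25 to -0.08, and with 8 assembly factors no test was made of it. These settings include the main fit and reuse the same libraries. A change of scaling alone shifts subunits and assembly factors alike, so the settings that differ only in scaling could hardly move this difference. A gap was also taken in each library, as median log2 CPM of the subunits minus that of the assembly factors. That gap was 2.49 ± 0.075 in IRI CKO, 2.37 ± 0.071 in IRI WT and 2.31 ± 0.12 in Sham WT (SD, n = 3 each). It was thus not smaller in IRI WT than in Sham WT, unlike the fold change medians.
Complexes II to V showed the same order of median fold changes. Their 35 tested subunits had medians of 1.20, 0.49 and -0.75 in IRI CKO against IRI WT, IRI CKO against Sham WT and IRI WT against Sham WT, and their 28 assembly factors medians of 0.83, 0.20 and -0.54.

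Per length of transcript, the subunits were more abundant than the assembly factors. The median level was 184, 82.9 and 141 CPM per kb over the subunits and 24.5, 12.2 and 21.7 CPM per kb over the assembly factors in IRI CKO, IRI WT and Sham WT kidneys. In each group 34 of 36 subunits lay above every assembly factor, the exceptions being Ndufab1 and Ndufb2. Among the subunits Ndufa1, a single-pass subunit of the membrane arm, was highest in IRI CKO at 559 ± 59.5 CPM per kb, and Ndufa6, which binds an acyl carrier protein, was highest in IRI WT at 239.6 ± 18.7 and in Sham WT at 370.1 ± 65.2 CPM per kb (SD, n = 3 each). In IRI CKO, Ndufa6 at 537 ± 23.3 and Ndufa2 at 511 ± 39.1 overlapped with Ndufa1 in mean ± SD. In IRI WT the next level, 218 ± 11.9 for Ndufa2, lay within the combined spread of Ndufa6. In Sham WT the next levels, 335 ± 44.5 for Ndufa1 and 326 ± 47.9 for Ndufa2, overlapped with Ndufa6 in mean ± SD. These spreads are between libraries, and the genes were not compared within each library. Ndufb2 was lowest, at 1.19, 1.06 and 1.38 CPM per kb, a value that depends on its annotated principal transcript of 4371 bases. Ndufaf5 was the lowest assembly factor, at 13.5, 9.72 and 10.9 CPM per kb, and Ndufaf8 the highest, at 45.5, 23.8 and 33.3 CPM per kb in the same groups.

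**Figure D4:**
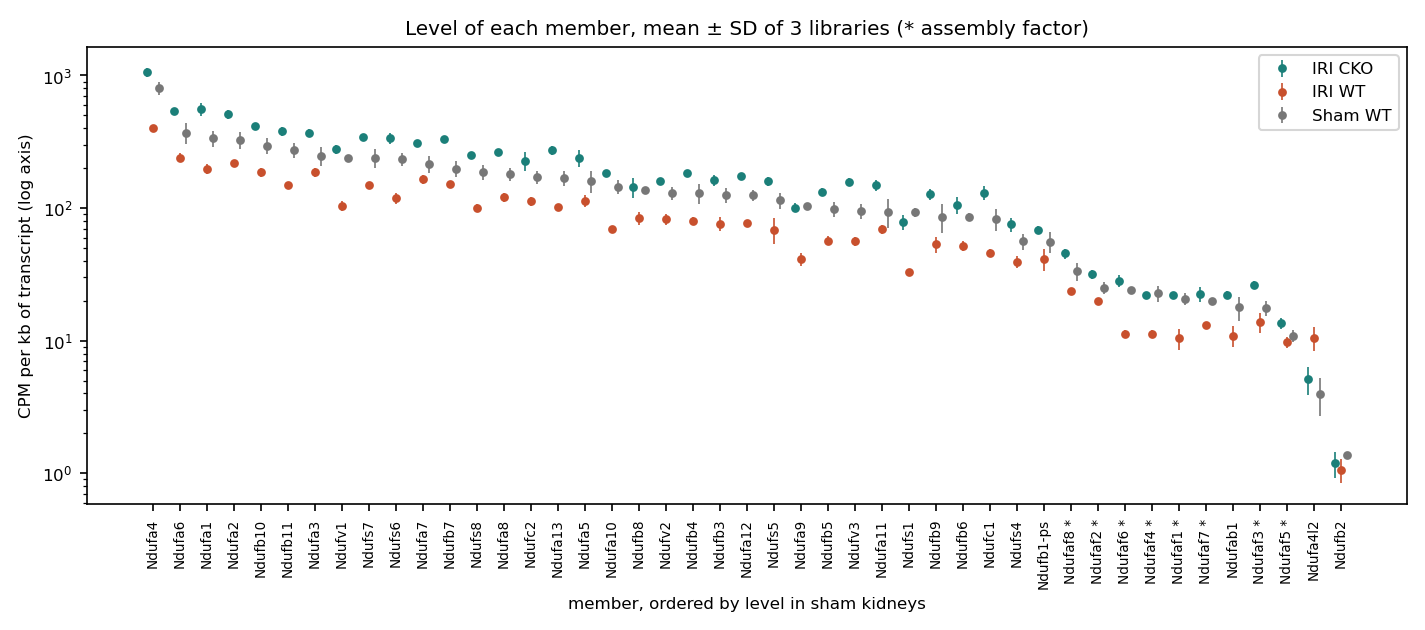
Level per kb of principal transcript for 45 members on a log axis, as mean and SD of 3 libraries per group, ordered by the level in Sham WT kidneys, with assembly factors starred. Assembly factors gather at the low end with Ndufab1, Ndufa4l2 and Ndufb2, and the IRI WT points lie under the others for all but Ndufa4l2.

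Shorter subunit transcripts stood higher in IRI CKO against Sham WT kidneys. Across the 36 subunits, log2 fold change and transcript length were related at Spearman's rho -0.52 in IRI CKO against Sham WT, 0.10 in IRI CKO against IRI WT and -0.40 in IRI WT against Sham WT. Over 15947 tested genes with a length the values were -0.35, -0.20 and 0.02 in the same order. These are correlations across genes that share libraries, and genes are not independent replicates. The 3 longest subunit transcripts, Ndufb2 with 4371, Ndufab1 with 3479 and Ndufs1 with 2661 bases, had log2 fold changes of -0.21, 0.31 and -0.24 in IRI CKO against Sham WT, and the shortest, Ndufa1 with 419 bases, had 0.74. With each library corrected for length and GC content, which was added after the data were seen, 7 subunits and 0 assembly factors remained called in that comparison, against 23 and 2. The 7 were Ndufa1, Ndufa2, Ndufa13, Ndufb7, Ndufc1, Ndufs4 and Ndufv3, and the median of the subunits was then 0.23. The same correction left 35 of 36 subunits called in each of the other comparisons. Of the 15974 tested genes, 529 were called higher in IRI CKO against Sham WT with this correction. In the other comparisons 5979 were called lower in IRI WT against Sham WT and 6165 higher in IRI CKO against IRI WT.

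**Figure D5:**
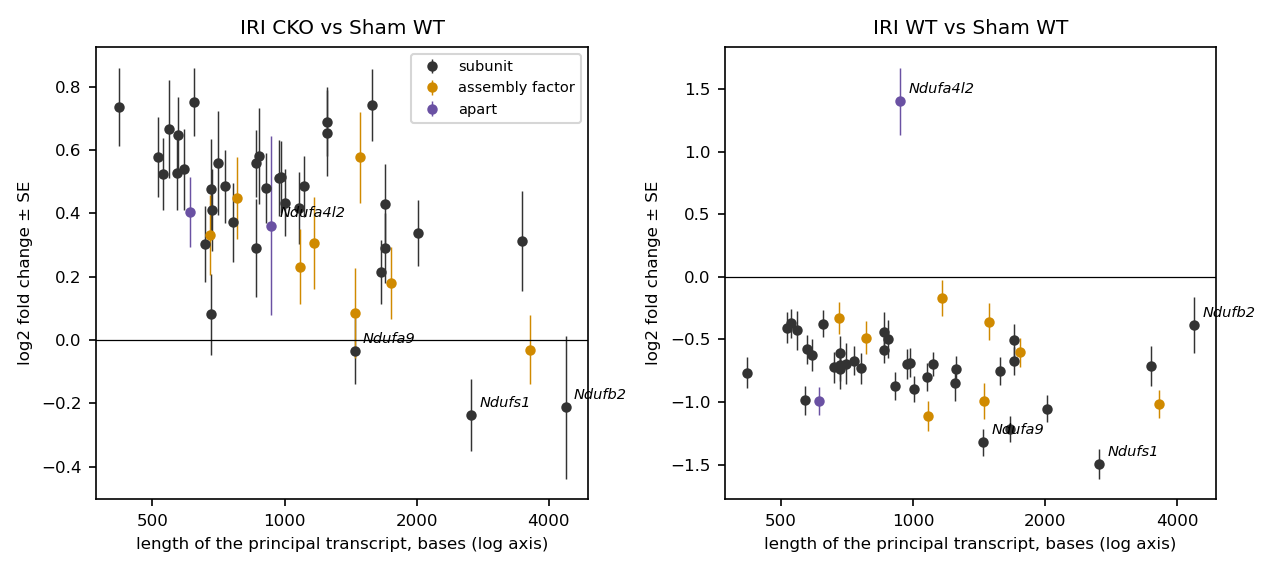
Fitted log2 fold change with its SE against the length of the principal transcript on a log axis, for 45 members (subunits, assembly factors and the 2 genes apart), in IRI CKO against Sham WT and in IRI WT against Sham WT. Short transcripts reach 0.75 in IRI CKO against Sham WT, while Ndufs1, with 2661 bases, is at -0.24 there and at -1.49 in IRI WT against Sham WT.

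The fall with injury depended on scaling. With library size alone in place of TMM, the median of all tested genes moved to 0.57 in IRI WT against Sham WT and to -0.59 in IRI CKO against IRI WT. Relative to that median the subunits lay at -0.72 with library size alone and at -0.73 with TMM in the first, and at 1.19 under both in the second. Such a change of scaling shifts all genes of a library alike, so these distances to that median could hardly differ. Set against 0 in place of that median, 8 subunits (among them Ndufa9, Ndufa10, Ndufb11, Ndufs1, Ndufs6, Ndufs8 and Ndufv1) and 3 assembly factors (Ndufaf1, Ndufaf4 and Ndufaf6) then still fell with injury and Ndufaf5 rose (0.38, adjusted p = 0.0398), while 33 subunits and 5 assembly factors rose in IRI CKO against IRI WT, with a subunit median of 0.60. Of the 15974 tested genes, 1953 were then called lower in IRI WT against Sham WT and 1852 higher in IRI CKO against IRI WT. Of all calls, 82% were then higher in IRI WT against Sham WT, against 50.6% with TMM, and 16.9% in IRI CKO against IRI WT, against 49.7%. With the correction for length and GC content the shares were 38.2% and 64.8%.

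The other genes of the pathway were counted in lists. Of all tested genes, 27.8% rose and 28.1% fell in IRI CKO against IRI WT. In IRI WT against Sham WT 29.5% rose and 28.7% fell, and in IRI CKO against Sham WT 8.13% rose and 9.48% fell. The 7 core subunits encoded in the mitochondrial genome all rose in IRI CKO against IRI WT (median log2 fold change 1.62) and all fell in IRI WT against Sham WT (-1.07), and 2 of 7 rose in IRI CKO against Sham WT. Of 12 assembly factors of complex I with other names, 11 rose in IRI CKO against IRI WT and 10 fell in IRI WT against Sham WT. The lowest with injury were Acad9, which works with Ndufaf1 and Ecsit (log2 fold change -1.77), Aifm1 (-1.46) and Nubpl, an iron-sulfur carrier for complex I (-1.44). In IRI CKO against Sham WT kidneys Acad9 (-0.53) and Nubpl (-0.48) fell, while Ecsit (0.41), Dmac1 (0.38) and Dmac2 (0.35) rose.
Of 12 genes that build iron-sulfur clusters, the cofactors of the peripheral arm, 12 rose in IRI CKO against IRI WT and 10 fell in IRI WT against Sham WT. Of 5 enzymes that feed ubiquinone by other routes, 5 rose in IRI CKO against IRI WT, 4 fell in IRI WT against Sham WT (median -1.47), and 2 fell in IRI CKO against Sham WT. Of 11 regulators of genes for mitochondria, 4 rose and 1 fell in IRI CKO against IRI WT, where 27.8% and 28.1% of all tested genes did. In IRI WT against Sham WT 7 fell and 1 rose, where 28.7% and 29.5% did. With 11 genes a difference from these shares was not tested. The coactivators Ppargc1a (log2 fold change -0.54) and Ppargc1b (-1.16), the receptor Esrra (-0.75) and the factor Tfam, which serves mitochondrial DNA (-0.71), fell with injury, while the coactivator Pprc1 rose (0.78). In IRI CKO against Sham WT 2 of the 11 fell and 0 rose, where 9.48% and 8.13% of all tested genes did. The 2 were Yy1 (-0.34) and Gabpa (-0.40), both among the factors whose motifs were searched in the promoters. Of the other such factors, Nrf1 (-0.18, adjusted p = 0.373) and Esrra (0.16, adjusted p = 0.330) did not pass edgeR's quasi-likelihood test there.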

How the data were processed

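RNA of whole kidney was measured in 9 libraries. The deposited values were counts per Ensembl gene and library, not normalised. Per the labels' protocols, libraries were made from total RNA with a NEBNext Ultra kit. Per the submitters' processing notes, the build was mm10 and DESeq2 1.16.1 was used, without a stated role. The sources used here do not give the aligner, the counter, the annotation release or the strand setting. GENCODE symbols of that build matched 55227 identifiers and left 1078 unmatched. Promoters came from RefSeq.

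Low-count rows were removed with filterByExpr of edgeR 4.0.16 (R 4.3.3), which left 15974 genes and kept all 46 members. Libraries were scaled by TMM, and edgeR's quasi-likelihood F test compared the groups in a fit of all 9 libraries. The p-values are 2-sided and were adjusted by Benjamini-Hochberg across the 15974 genes, with calls at a false discovery rate of 0.05. Counts of a member ranged from 46 to 9447 in a library, and intervals from counting error were not needed beside the fitted SE. The procedure was tested on simulated counts in which a small part of the genes was changed, in IRI WT only. That test does not cover the scaling of the real libraries, where many more genes were called. Level per kb used the longest APPRIS principal transcript.

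The members and lists were chosen with earlier results of these data known. A member is counted in every total and fit but is not reported here by itself and is left out of the plots of single members. Values per sample are given for the other core subunits, all assembly factors, 2 paralog pairs and, among the remaining subunits, those with the 2 highest and 2 lowest changes in each comparison. Ndufa1, Ndufa2, Ndufa6, Ndufab1 and genes of other lists were named after their values were seen. Alternatives were other scalings, library sizes without mitochondrial transcripts, DESeq2 1.42.0, other low-count filters, only the groups compared, a replicate block, a false discovery rate of 0.01, each library left out and, added after seeing the data, Ndufb1-ps left out and a length and GC correction.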

Additional observations from a re-analysis of the deposited data

How the results depend on the processing

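With library size alone, 8 subunits and 3 assembly factors were lower and 1 assembly factor higher in IRI WT against Sham WT, and 5 assembly factors were higher in IRI CKO against IRI WT. Signs turned in IRI WT against Sham WT for Ndufaf2 (0.22), Ndufaf3 (0.19), Ndufaf5 (0.38), Ndufaf8 (0.063), Ndufb7 (0.18), Ndufa7 (0.18), Ndufb2 (0.16) and Ndufb1-ps (0.12), among others, and in IRI CKO against IRI WT for Ndufaf5 (-0.11) and Ndufb2 (-0.41). With the length and GC correction, 7 subunits, 0 assembly factors and 1044 genes of either direction were called in IRI CKO against Sham WT, and subunits minus assembly factors was 0.11 there and in IRI CKO against IRI WT. At a false discovery rate of 0.01 the calls in IRI CKO against Sham WT were 6 subunits, 0 assembly factors and 564 genes. Leaving out 1 library gave 30 to 35 subunits and 5 to 7 assembly factors lower in IRI WT against Sham WT, 35 and 7 to 8 higher in IRI CKO against IRI WT, and 6 to 28 and 0 to 2 higher in IRI CKO against Sham WT. Genes called in either direction were then 8287 to 9865, 7919 to 9057 and 640 to 2868 in these comparisons, and subunits minus assembly factors was -0.25 to -0.079, 0.22 to 0.29 and 0.16 to 0.30. Of the members called, 6 of 43, 1 of 45 (Ndufaf5) and 20 of 26 lost their call in at least 1 of these fits. The cause of these shifts was not tested.

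The labels do not say whether replicate numbers pair the samples. Deviations of libraries with the same number correlated at -0.10 to 0.04, and those with different numbers at -0.052 to 0.112. With 3 libraries per group these values cannot settle whether samples were paired. With a replicate block 35 subunits and 6 assembly factors were lower in IRI WT against Sham WT, 35 and 8 higher in IRI CKO against IRI WT, and 20 and 2 higher in IRI CKO against Sham WT. Of the 15974 tested genes, 4387 were then called lower, 4266 higher and 943 higher in these comparisons. In the first, Ndufaf3 passed (adjusted p = 0.0380) and Ndufaf2 did not (0.0628) under the block, and in the last Ndufa4 (0.0564) and Ndufa10 (0.0673) did not. Depth limits Ndufb2 and Ndufa4l2 most, with at least 54 and 46 counts.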
